A study of Homo sapiens with 12 samples.

Results

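Genes listed as antisense are transcribed from the strand opposite another gene, often across its start site, its introns or its end. Some of these RNAs are named after the opposite (sense) gene with the suffix -AS, and the group also holds well-known noncoding RNAs with other names, among them hosts of small nucleolar RNAs (snoRNAs). Negative elongation factor (NELF), of which NELFA is a subunit, holds RNA polymerase II shortly after initiation, and YAP is a transcriptional coactivator that acts through TEAD DNA-binding proteins. The results below describe 117 antisense genes in MDA-MB-231 cells, a triple-negative breast cancer line of mesenchymal character, after knockdown of either factor or of both.

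The members were chosen by the biotype antisense in the count table and by a mean of at least 100 reads over 12 libraries, so their high counts are the rule and not a finding. The table lists 58051 genes, of which 5526 carry the biotype and 3541 of these had at least 1 count. The 4 groups were siControl, transfected with a non-targeting siRNA pool, siNELFA, siYAP and the double knockdown siNELFA+siYAP. Each had 3 libraries of ribosomal-RNA-depleted total RNA. All groups shared the unmodified parental line and the transfection, with siRNA at 50 to 100 nM; the labels give harvest at 48 h and at 72 h, and the study's methods give 72 h for RNA sequencing. Every group rests on this 1 cell line and on 1 siRNA pool per target, and knockdown was transient and partial. In bulk RNA, fewer cells with a transcript and less of it per cell cannot be told apart.

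Libraries held 9608145 to 18803104 counted reads. NELFA had 379, 411 and 418 normalised reads in the siControl libraries, 149, 136 and 106 in siNELFA, and 123, 101 and 95 in siNELFA+siYAP. YAP1 had 4525, 4021 and 3696 normalised reads in siControl, 691, 681 and 564 in siYAP, and the double knockdown held 661, 610 and 601. Both targets were thus low in the libraries labelled for them and in no other group. The line's mesenchymal markers VIM, CD44, AXL and EGFR averaged 23267, 18081, 18938 and 10408 reads, while the hormone receptors ESR1 and PGR averaged 2.333 and 1.333 and the basal keratin KRT5 was at 0. Replicate 1 of siControl, siNELFA and siYAP stood apart from replicates 2 and 3: over the members, its median absolute distance from the mean of the other 2 was 0.44 to 0.52 on the log2 scale, against 0.15 to 0.21 between replicates 2 and 3. In siNELFA+siYAP the same distance was 0.13. The libraries of siControl, siNELFA and siYAP that share a number deviated together, and those of siNELFA+siYAP did not. The library names of siControl, siNELFA and siYAP carry N1, N2 and N3, while all 3 of siNELFA+siYAP carry N1 and a running number; their titles call them replicates 1 to 3, and the methods speak of independent biological replicates. The biological coefficient of variation was 0.0615 among them, against 0.351 to 0.365 in each other group. The range of BioSamples that the paper lists holds fewer entries than the 12 libraries, without saying which libraries share one. Whether the siNELFA+siYAP libraries come from separate transfections cannot be told from these sources. If they do not, siNELFA+siYAP holds 1 biological sample, its SDs and every p-value that involves it measure technical spread, and its counts of calls cannot be set against those of the single knockdowns. For the pairing, the 2 single knockdowns are given without a block and again with one for the replicate number.

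The first sequence shown lies between RPPH1, the member of highest count, and PARP2. Whether this sequence has a part in the values below was not tested. RPPH1 is the RNA of RNase P, the enzyme that trims the leader off transfer RNA precursors, and RNA polymerase III makes it, while PARP2, a sensor of DNA breaks, is made by RNA polymerase II in the opposite direction. Between the annotated starts of the ribozyme and of PARP2 lie 207 bases (GRCh38, chr14:20343408-20343614), which hold the fragment widely used as the H1 promoter in RNA-interference vectors. It is shown on the RPPH1 (minus) strand, 5′ to 3′, up to the last base before the ribozyme, with the octamer ATTTGCAT and the TATA element TTATAA in capitals.
RPPH1 to PARP2: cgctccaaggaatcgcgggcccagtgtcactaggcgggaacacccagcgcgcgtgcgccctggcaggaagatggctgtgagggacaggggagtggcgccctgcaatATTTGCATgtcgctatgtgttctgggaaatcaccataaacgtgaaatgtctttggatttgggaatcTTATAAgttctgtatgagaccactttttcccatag
In the 35116 RefSeq promoter windows, the 207 bases before the start held the octamer on either strand in 1.35%, TTATAA, which reads the same on both strands, in 3.71% and both in 0.074%.

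Also shown are the stretches between the starts of UBA6-AS1 and RNASEH1-AS1 and those of their sense genes, which start back to back, because the members and sense genes of such pairs can be compared without any overlap of their transcripts. UBA6-AS1 lies next to UBA6, an activating enzyme of the ubiquitin system, and RNASEH1-AS1 next to RNASEH1, which cuts RNA in RNA-DNA hybrids. The bases between the 2 starts of each pair are given on the plus strand of GRCh38, at chr4:67701156-67701208 and chr2:3558334-3558418. Neither holds the TEAD core GGAATG on either strand, which would be in capitals.
UBA6-AS1 and UBA6: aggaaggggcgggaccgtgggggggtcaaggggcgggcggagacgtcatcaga
RNASEH1-AS1 and RNASEH1: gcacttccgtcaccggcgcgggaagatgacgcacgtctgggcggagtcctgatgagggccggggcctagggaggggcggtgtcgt
Their share of G and C was 71.7% and 70.6%, against 53.1% between RPPH1 and PARP2.

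Shown last are the promoters of SNHG12 and ZFAS1, which host snoRNAs and are taken up again with the double knockdown. RefSeq gives for each a window of 250 bases before to 50 after the start on GRCh38.p14, at chr1:28581824-28582123 on the minus strand and chr20:49278392-49278691 on the plus strand. The TEAD core is in capitals.
SNHG12: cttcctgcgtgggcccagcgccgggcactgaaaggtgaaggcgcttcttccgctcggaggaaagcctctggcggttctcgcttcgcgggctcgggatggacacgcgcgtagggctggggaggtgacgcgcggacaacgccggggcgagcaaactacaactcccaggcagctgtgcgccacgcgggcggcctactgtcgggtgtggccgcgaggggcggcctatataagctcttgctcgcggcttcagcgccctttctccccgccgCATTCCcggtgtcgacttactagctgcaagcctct
ZFAS1: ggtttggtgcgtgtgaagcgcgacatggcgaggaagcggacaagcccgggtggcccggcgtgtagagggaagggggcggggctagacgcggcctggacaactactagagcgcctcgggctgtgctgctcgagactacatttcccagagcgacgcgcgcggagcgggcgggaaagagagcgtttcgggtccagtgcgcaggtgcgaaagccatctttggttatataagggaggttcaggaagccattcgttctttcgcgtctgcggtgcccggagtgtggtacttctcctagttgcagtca
RefSeq windows were matched for 78 of the 117 members. The core was present in 17 of their 100 windows (17%) and in 14% of all 35116 windows. These matches describe letters in a window and show no binding.

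By count, RPPH1 led the members with a mean of 48678 reads, followed by KCNQ1OT1 (3335), CTD-2013N24.2 (3122), TUG1 (2960), HCG18 (1712), FGD5-AS1 (1688), GABPB1-AS1 (1593) and PSMA3-AS1 (1170). The median member had 181.2 reads. Per length, on the authors' TPM scale, the order was another one. RPPH1 averaged 771 TPM, CTD-2013N24.2 (named EOGT-DT in GENCODE v44) 390, SCARNA9, a guide RNA of the Cajal body, 142 and ZFAS1 108, while KCNQ1OT1, a very long RNA that silences imprinted neighbours, averaged 3 TPM. Across members the TPM ranged from 0.128 to 771 with a median of 7.17, and 38 of 117 reached 10. Just inside the count threshold lay the gene GENCODE v44 names ZDHHC12-DT (100.6) and PRR7-AS1 (100.7), and just outside lay AP001469.9 (99.5) and RP3-399L15.3 (98.92).

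Together the members took 0.524% ± 0.0414 of counted reads in siControl, 0.616% ± 0.0179 in siNELFA, 0.566% ± 0.0405 in siYAP, reaching 0.653% ± 0.00936 after the double knockdown (mean ± SD, n = 3). RPPH1 alone took 0.261% ± 0.0455, 0.359% ± 0.0275, 0.292% ± 0.0427 and 0.375% ± 0.00856 in the same order. The other members took 0.262% ± 0.00427, 0.257% ± 0.0108, 0.274% ± 0.00225 and 0.277% ± 0.00495, so most of the difference in the total between groups was that of RPPH1. The antisense entry RPPH1 (ENSG00000259001, chr14:20343048-20343685, minus strand) contains the whole ribozyme gene of the same name (ENSG00000277209), and the counts of both entries were equal in 10 of 12 libraries and differed by at most 3 reads. What was counted as the most abundant antisense RNA is therefore, within 3 reads, the RNase P RNA.

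Whether reads of sense genes leaked into the members was checked on strand. The check used 347 pairs of an antisense and an opposite-strand gene that share at least 200 exonic bases. The opposite gene had a mean of at least 500 reads, and unstranded counting of the overlap would give at least 100. The observed antisense count was at the median 0.0228 of that expectation, and 284 pairs were below 0.1. The counts thus followed strand, though a small leak would matter where the sense gene is very abundant. Opposite abundant genes, RP5-940J5.9, across from GAPDH, had a mean of 119 reads or 0.0286 of that expectation, VIM-AS1 had 204 reads or 0.0691, CYP1B1-AS1 139 reads or 0.124, and AFAP1-AS1 208 reads or 0.137. For these 4, a share of reads from the other strand was not tested. RP11-342K6.1 shares 99.9% of its exonic bases with MRPL19 on the same strand, so its reads cannot be told apart from those of that gene. The exons of the member ENSG00000278419 (611.4 reads but 0.128 TPM) are shared with PFKP (26.8%) and PITRM1-AS1 (73.2%), and RP11-70C1.3 and RP11-518L10.5 share 24.9% and 24.5% with HIGD1A and ADSS2. SCARNA9 shares 22.7% with another entry, so the levels of these members are uncertain.

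After NELFA knockdown, the members as a group stayed at the level of siControl, and RPPH1 and HCG18 were those that passed an adjusted test once replicates were blocked. The 117 members had a median log2 fold change of 0.00, with a range of -0.69 to 0.73, and 110 of 117 lay within 0.5 of zero, against 82.6% of all 17727 genes tested. In edgeR's quasi-likelihood test on 6 libraries, 1 member passed the nominal threshold of p under 0.05 (0.855%), against 4.46% of all genes. None passed after Benjamini-Hochberg adjustment, against 0.00564% of all genes, or 1 gene. DESeq2 gave 2 at the nominal and 0 at the adjusted threshold, against 2.6% and 0.053% of all genes in that tool. DESeq2 shares of all genes, here and below, are over every gene with at least 1 count (32101 here). Those of edgeR are over genes past a filter on low counts. With the replicate number as a block, 13 members passed the nominal threshold (11.1%), 8 higher and 5 lower, against 20.2% of all genes, and 2 the adjusted threshold, against 5.21%. Both shares were below those of the whole table, a difference that was not tested.

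RPPH1 had 33136, 39358 and 44149 normalised reads in siControl and 63153, 49015 and 54695 in siNELFA. The lowest siNELFA library lay above the highest siControl library. The log2 fold change was 0.52 ± 0.17 (SE, edgeR adjusted p = 1) without the block and 0.52 ± 0.11 (edgeR adjusted p = 0.0192) with it. It ranged from 0.42 to 0.62 over fits that left out 1 library, and the nominal call was lost without siControl replicate 2 and on the TPM scale. HCG18, transcribed in the HLA region (chr6:30286690-30327382, minus strand), had 1584, 1984 and 1929 normalised reads in siControl and 1020, 1629 and 1521 in siNELFA. The groups overlapped, since siControl replicate 1 lay between the siNELFA libraries, but within each number the siNELFA library was the lower one. Its log2 fold change was -0.42 ± 0.11 with the block (edgeR adjusted p = 0.0475) and -0.40 ± 0.22 without it (edgeR adjusted p = 1). Against this, siNELFA+siYAP held 1918, 1784 and 1727 reads of HCG18, within the siControl range.

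PARP2, across the 207 bases printed above, lay below siControl in siNELFA and siNELFA+siYAP, where RPPH1 lay above. It was added after its values were seen, and it is no member. Its normalised reads were 738, 523 and 505 in siControl, 477, 472 and 439 in siNELFA, 467, 487 and 521 in siYAP, while siNELFA+siYAP held 340, 376 and 380. The siNELFA and siNELFA+siYAP libraries lay below all siControl libraries. The log2 fold change was -0.32 ± 0.14 in siNELFA with the block (edgeR adjusted p = 0.231) and -0.70 ± 0.18 in siNELFA+siYAP (edgeR adjusted p = 0.123), so PARP2 did not pass the adjusted threshold. In siYAP it was -0.27 ± 0.22, and siNELFA differed from siYAP by -0.08 ± 0.15.

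After YAP knockdown, 3 members were higher at the nominal threshold and none was lower. The median log2 fold change of the members was 0.07, against 0.00 for all 17296 genes tested, with a range of -0.66 to 1.02, and 109 members lay within 0.5 of zero. In edgeR, 3 of 117 members passed the nominal threshold (2.56%), against 1.3% of all genes, and 0 the adjusted one, against 0.00578%. DESeq2 gave the same counts, 3 and 0, against 0.988% and 0.00313% of all genes in that tool. Once replicates were blocked, 14 members were higher and 1 was lower at the nominal threshold, against 5.11% of all genes higher and 4% lower (9.11% in both directions). With the block, too, no member passed the adjusted threshold, against 0.0173% of all genes.

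RP11-284F21.10 (chr1:156641666-156644887, minus strand) had 84.3, 144 and 129 normalised reads in siControl, 79.8, 174 and 92.8 in siNELFA, 238, 233 and 258 in siYAP, while siNELFA+siYAP held 167, 183 and 150. The siYAP libraries lay above those of every other group. The log2 fold change in siYAP was 1.02 ± 0.26 (edgeR adjusted p = 1), and 1.03 ± 0.20 with the block (edgeR adjusted p = 0.314). DBH-AS1, which lies inside DBH, the gene of dopamine beta-hydroxylase, had 118, 148 and 166 normalised reads in siControl and 311, 249 and 247 in siYAP. The groups did not overlap, and the log2 fold change was 0.89 ± 0.24 (edgeR adjusted p = 1). Its sense gene was hardly transcribed, with a mean of 2.167 reads. RP11-334C17.5 (chr17:80200673-80205949, minus strand) had 185, 186 and 182 normalised reads in siControl and 359, 255 and 274 in siYAP, with a log2 fold change of 0.68 ± 0.22 (edgeR adjusted p = 1). Its nominal call was lost without siControl replicate 2, without siControl replicate 3 and on the TPM scale. RefSeq gave no promoter window for these 3 genes.

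**Figure D1:**
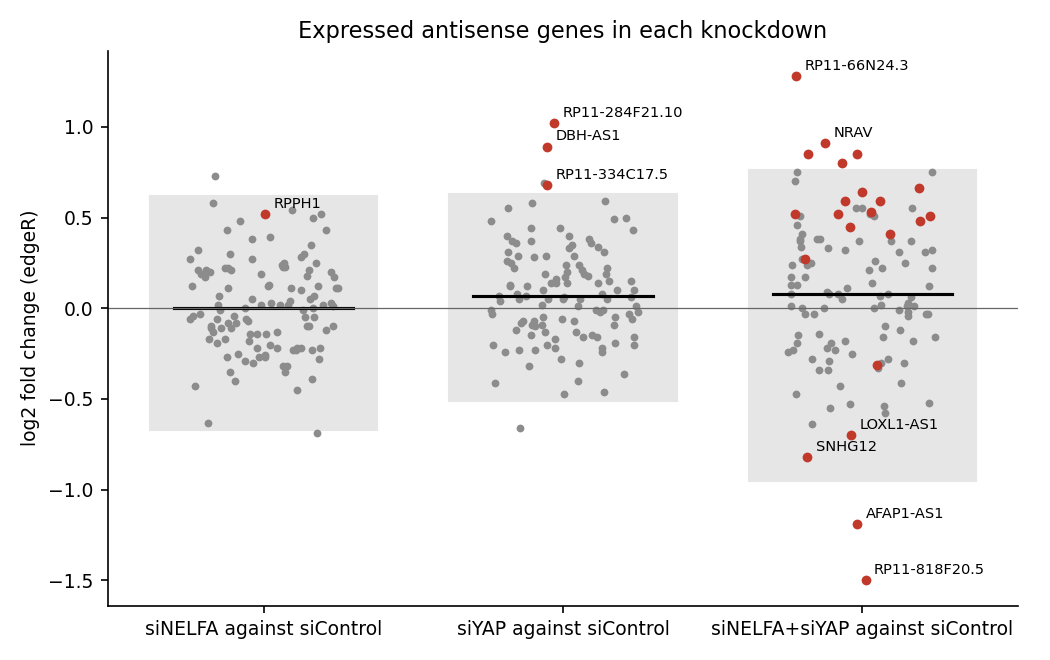
Log2 fold change against siControl (vertical axis, edgeR, no block) of the 117 members in each knockdown. Each point is a member, red where nominal p was under 0.05, the black line is the members' median (0.00, 0.07 and 0.08) and the grey band spans the 5th to the 95th percentile of all genes tested. Red points number 1 in siNELFA, 3 in siYAP and 22 in the double knockdown (17 above and 5 below zero), against 4.46%, 1.3% and 18.5% of all genes. Libraries of the single knockdowns spread more. Whether those of the double knockdown come from separate transfections cannot be told, so its count is not set against the others.

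In the double knockdown the members' share past the nominal threshold was close to that of the whole table, over libraries whose independence cannot be told from their names. In edgeR, 22 of 117 members passed the nominal threshold (18.8%), against 18.5% of all 17533 genes. Of these, 17 were higher, against 8.27% of all genes, and 5 were lower, against 10.2%. The median log2 fold change was 0.08, against -0.03 for all genes, and 62.4% of members had a positive value, against 47.4%. No member passed the adjusted threshold in edgeR, against 0.428% of all genes or 75 genes, while DESeq2 called 5 members: RP11-66N24.3, NRAV, RPPH1 and RP11-757F18.5 higher and SNHG12 lower (4.27%), against 2.91% of all genes in that tool. The DESeq2 share is over 32116 genes, which include those below the edgeR filter, so the members and all genes are unlike in level there. Leaving out siControl replicate 1 raised the count at the adjusted threshold to 25 of 117 (21.4%), against 24.4% of all genes in that fit, and leaving out any other single library left it at 0.

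Genes without an -AS name are given first. RP11-66N24.3 (AP1G2-AS1 in GENCODE v44, chr14:23561097-23568073, plus strand) had 87.6, 51.9 and 89.9 normalised reads in siControl, 161, 107 and 112 in siNELFA, 171, 81.2 and 96 in siYAP, while siNELFA+siYAP held 166, 204 and 191. Its double-knockdown libraries lay above all siControl libraries, with a log2 fold change of 1.28 ± 0.26 (edgeR adjusted p = 0.081). Against siNELFA alone the difference was 0.56 ± 0.22 (edgeR adjusted p = 0.735). NRAV, a negative regulator of the antiviral interferon response, had 63.2, 93.1 and 113 normalised reads in siControl and 151, 188 and 175 in siNELFA+siYAP, a log2 fold change of 0.91 ± 0.24 (edgeR adjusted p = 0.127). In the single knockdowns NRAV was low in replicate 1 (50.5 and 69.1 reads) and high in replicates 2 and 3 (163 to 199), so that those groups overlapped siControl. RP11-757F18.5 (named TBILA in GENCODE v44) had 94.1, 98.9 and 80.6 normalised reads in siControl and 172, 137 and 169 in siNELFA+siYAP, a log2 fold change of 0.80 ± 0.20 (edgeR adjusted p = 0.111).

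RPPH1 had 56040, 57651 and 54075 normalised reads in siNELFA+siYAP, in the range of siNELFA alone and above siControl, with a log2 fold change of 0.51 ± 0.12 (edgeR adjusted p = 0.0972). In siYAP alone it had 37540, 45663 and 45438, overlapping siControl. TTN-AS1, opposite the titin gene, had 371, 278 and 375 normalised reads in siControl and 597, 478 and 478 in siNELFA+siYAP, without overlap and with a log2 fold change of 0.59 ± 0.18 (edgeR adjusted p = 0.158). DBH-AS1 and RP11-334C17.5, 2 of the 3 genes named for siYAP, were also higher here, by 0.59 ± 0.18 and 0.45 ± 0.14. The 3 comparisons share the siControl libraries, so these values are not independent of each other. GABPB1-AS1, which overlaps the start of the gene of a GABP transcription factor subunit, had 1448, 1547 and 1517 normalised reads in siControl and 1799, 1837 and 1847 in siNELFA+siYAP, a difference of 0.27 ± 0.10 on the log2 scale.

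Genes with a snoRNA name and a mean of at least 1 read were looked for in the members' annotated exons, not in introns. Of the 4 members that held one there on the same strand, SNHG12, SNHG7 and ZFAS1 averaged lower in the double knockdown than in siControl. UBA6-AS1, which holds SNORA62, stood at 0.24 ± 0.22. The 4 members were grouped after their values were seen. SNHG12 had 253, 317 and 349 normalised reads in siControl, 282, 190 and 212 in siNELFA, 222, 286 and 303 in siYAP, while siNELFA+siYAP held 186, 156 and 183. The last group lay below all siControl libraries, with a log2 fold change of -0.82 ± 0.18 (edgeR adjusted p = 0.0862). ZFAS1 had 945, 809 and 805 normalised reads in siControl and 661, 693 and 724 in siNELFA+siYAP, a log2 fold change of -0.31 ± 0.13 (edgeR adjusted p = 0.254), and its nominal call was lost in DESeq2, in the fit of all 12 libraries, on the TPM scale, without the filter on low counts, with the block, with replicates 2 and 3 only, and when siControl replicate 2 or any library of siNELFA+siYAP was left out. SNHG7 had 347, 568 and 621 normalised reads in siControl and 464, 459 and 403 in siNELFA+siYAP. Its siControl replicate 1 lay below the double knockdown and replicate 3 well above it, and the log2 fold change was -0.23 ± 0.22 (edgeR adjusted p = 0.616). Without siControl replicate 1 it was -0.44 ± 0.10 (edgeR adjusted p = 0.00608), beside -0.93 ± 0.14 for SNHG12 (edgeR adjusted p = 0.000146).

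LOXL1-AS1, which overlaps the start of LOXL1, the gene of a lysyl oxidase that cross-links elastin, had 125, 190 and 188 normalised reads in siControl, 141, 181 and 143 in siNELFA, 173, 211 and 166 in siYAP, while siNELFA+siYAP held 94.2, 115 and 104. All double-knockdown libraries lay below those of the other groups, with a log2 fold change of -0.70 ± 0.22 against siControl (edgeR adjusted p = 0.169). The nominal call was lost when siControl replicate 2, siControl replicate 3 or siNELFA+siYAP replicate 1 was left out. AFAP1-AS1 and RP11-818F20.5 had the lowest log2 fold changes of the 117 members, and in siControl both were highest in replicate 1. AFAP1-AS1, opposite the gene of an actin filament-associated protein, had 501, 217 and 148 normalised reads in siControl, 443, 187 and 86 in siNELFA, 400, 235 and 149 in siYAP, while siNELFA+siYAP held 107, 156 and 118. RP11-818F20.5 had 284, 111 and 51.1 in siControl and 59.5, 54.7 and 43.5 in siNELFA+siYAP. For both, the double knockdown overlapped siControl replicate 3. Their log2 fold changes of -1.19 ± 0.45 and -1.50 ± 0.59 became -0.53 and -0.64 without siControl replicate 1.

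**Figure D2:**
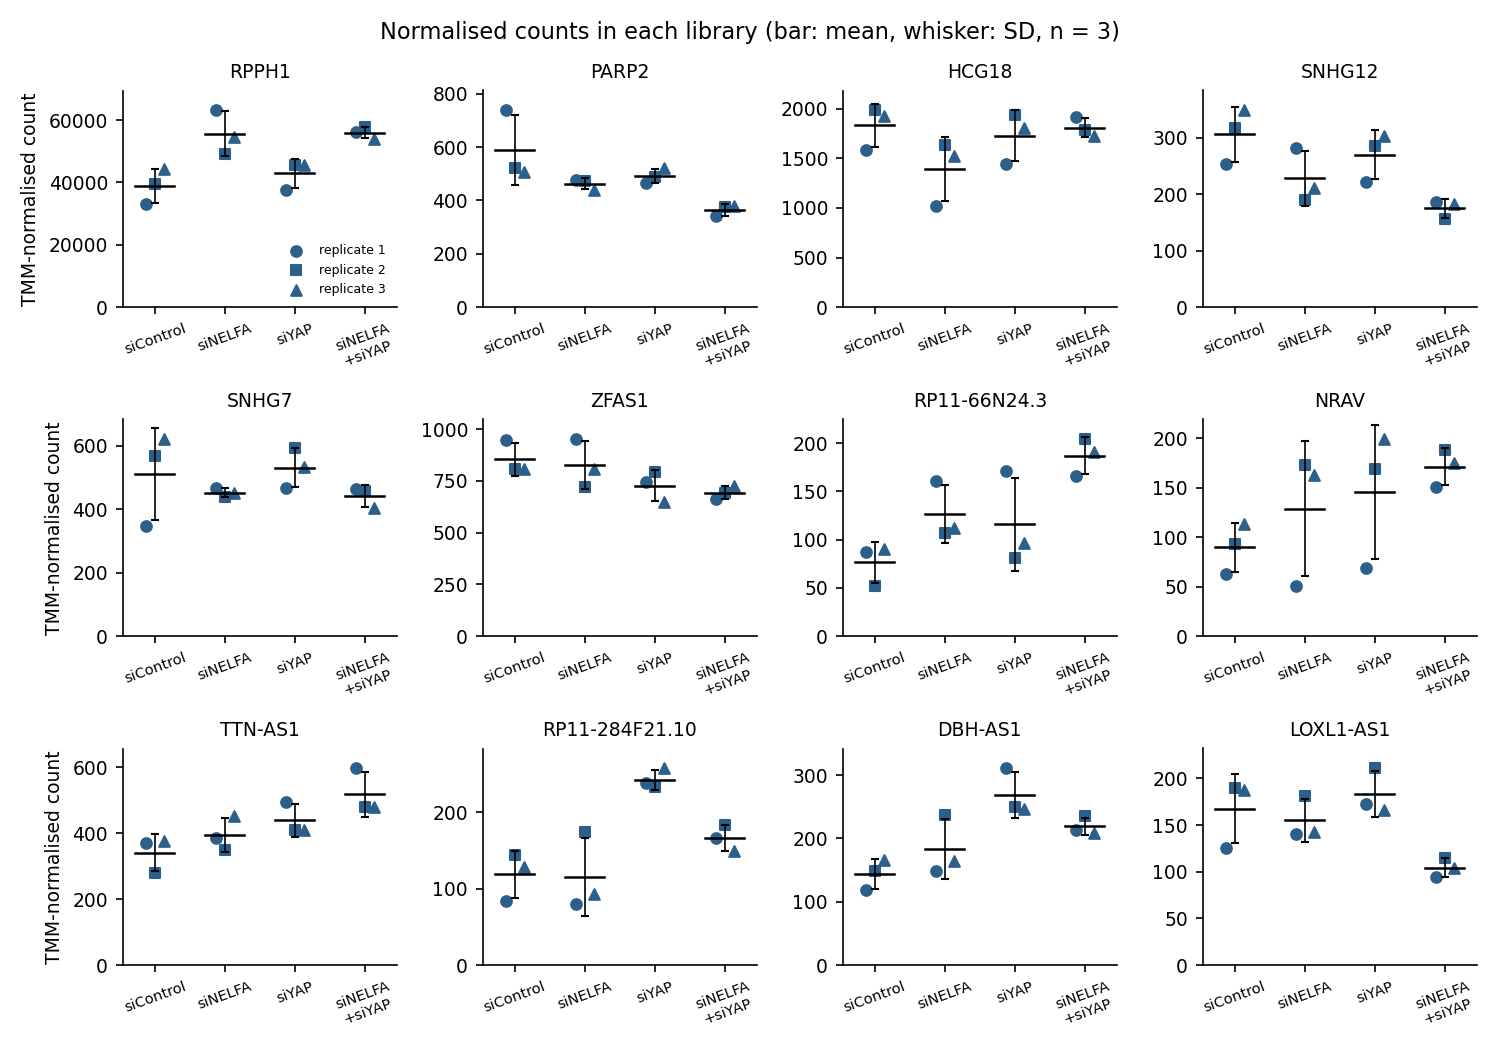
TMM-normalised read counts (vertical axes, from 0) of 11 members and of PARP2 in each of the 12 libraries, by group. Marker shape gives the replicate number, the bar the mean and the whisker the SD (n = 3 per group). RPPH1 stood above siControl in both groups with siNELFA, the PARP2 means of all 3 knockdowns lay below that of siControl, and replicate 1 lay apart in several single-knockdown and control groups, for example for NRAV.

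siNELFA and siYAP were also compared with each other directly. Without a block, 6 members passed the nominal threshold in edgeR, all lower in siNELFA, against 5.63% of all 17257 genes, and 0 the adjusted one, against 0.0116%. With the replicate number as a block, 33 members passed the nominal threshold (28.2%), against 28.3% of all genes, and 16 the adjusted threshold (13.7%), against 15.8%. Of these 16, 2 were higher in siNELFA, against 8.33% of all genes, and 14 lower, against 7.44%. With only replicates 2 and 3 and no block, 16 members passed the nominal threshold (13.7%) and 0 the adjusted one, against 13.4% and 0.219% of all genes.

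The 2 members higher in siNELFA than in siYAP were RPPH1, by 0.38 ± 0.09 (edgeR adjusted p = 0.0065), and RP11-282O18.3, by 0.54 ± 0.14 (edgeR adjusted p = 0.00976). RP11-282O18.3 had 375, 434 and 460 normalised reads in siControl, 398, 446 and 520 in siNELFA and 192, 373 and 397 in siYAP. Among the 14 lower ones were the 3 genes that stood higher in siYAP than in siControl. Those 3 were named for high values in the same siYAP libraries, so their low values here are no separate support. RP11-284F21.10 differed by -1.11 ± 0.20 (edgeR adjusted p = 0.000413), DBH-AS1 by -0.55 ± 0.17 (edgeR adjusted p = 0.0311) and RP11-334C17.5 by -0.44 ± 0.15 (edgeR adjusted p = 0.0427). ZMIZ1-AS1, head to head with ZMIZ1, a coactivator of nuclear receptors, had 162, 120 and 117 normalised reads in siNELFA and 223, 183 and 267 in siYAP, a difference of -0.76 ± 0.18 (edgeR adjusted p = 0.00488). In siControl it had 146, 126 and 208, which overlapped both. Members that only this comparison names were chosen after their values were seen.

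**Figure D3:**
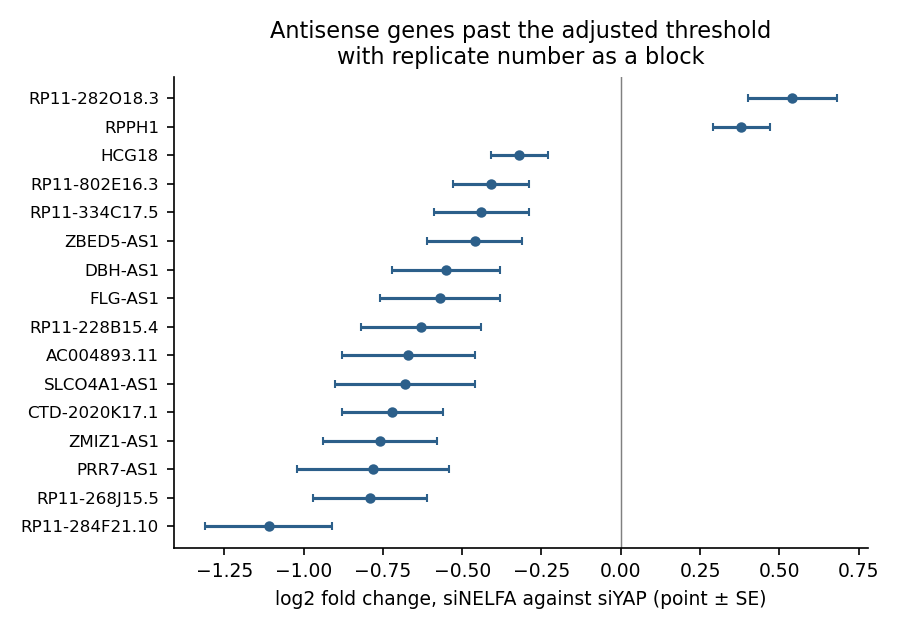
Log2 fold change (horizontal axis, point ± SE, n = 3 per group) of siNELFA against siYAP for the 16 members at adjusted p under 0.05 in edgeR with the replicate number as a block. RP11-282O18.3 and RPPH1 lie to the right of zero, and the 14 others to the left, down to -1.11 for RP11-284F21.10.

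Against each single knockdown, the double knockdown gave member shares near those of all genes. Against siNELFA, 8 members passed the nominal threshold in edgeR, 6 higher and 2 lower, against 6.62% of all genes, and 0 the adjusted one, against 0.00573% (0 by DESeq2 as well). The nominal count was 16 without siNELFA replicate 1 (14.1% of all genes), 19 without siNELFA replicate 3 (15%), and 4 to 5 when a library of siNELFA+siYAP was left out. Against siYAP, 16 passed the nominal threshold, 7 higher and 9 lower, against 15.5%, and 0 the adjusted one, against 0.035%, where DESeq2 called RP11-268J15.5 and LOXL1-AS1, against 1.55% of all genes in that tool. Leaving out siYAP replicate 1 raised the latter count to 15 in edgeR (12.8%), against 16.5% of all genes in that fit. RP11-284F21.10 was lower in the double knockdown than in siYAP, by -0.55 ± 0.16 (edgeR adjusted p = 0.213). In the interaction of both knockdowns over 12 libraries, which asks whether the effect of siNELFA was another with siYAP than without, 1 member passed the nominal threshold, against 1.76% of all 18525 genes. It was LOXL1-AS1, at -0.70 ± 0.31 (edgeR adjusted p = 1), and no gene of the table passed the adjusted threshold (0% of all genes). DESeq2 gave 2 and 0 members, against 1.6% and 0% of all genes.

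The members' share past the nominal threshold in the double knockdown was also set beside those of other classes. It lay below those of long intergenic and protein-coding genes at the same count threshold. It lay above that of antisense genes below this threshold. In the double knockdown the share was 18.8% for the members, 11.6% for 768 antisense genes below a mean of 100 that could be tested, 25.2% for 139 long intergenic noncoding RNAs and 22.4% for 10833 protein-coding genes, both with a mean of at least 100. The share of positive fold changes was 62.4%, 57.7%, 41.7% and 46.7% in the same order. In siYAP the share of positive values was 59.8%, 56.9%, 38.1% and 46.9%. In siNELFA it was 51.3%, 49.1%, 38.8% and 51.6%, so the antisense classes showed no such lean there. On the TPM scale, the members' median log2 fold change in the double knockdown was 0.00 and that of all genes -0.10. These shares describe the lists and were not tested.

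**Figure D4:**
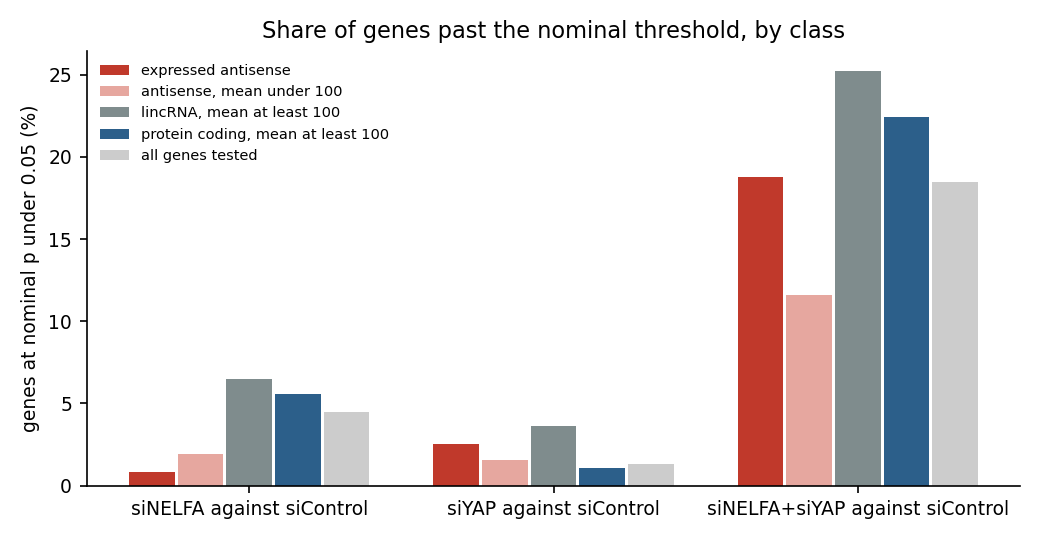
Share of genes at nominal p under 0.05 in edgeR (vertical axis, %) for the 117 members, for antisense genes with a mean under 100, for long intergenic (lincRNA) and protein-coding genes with a mean of at least 100, and for all genes tested, in the 3 comparisons with siControl. The members stand at 0.855%, 2.56% and 18.8%, beside 4.46%, 1.3% and 18.5% for all genes.

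Of the 117 members, 56 carry a name with -AS, and each of the sense genes so named is in the count table. In GENCODE v44, 22 of the pairs overlap at their starts, 15 have one gene inside the other, 14 overlap at their ends, 4 are head to head without overlap and 1 is tail to tail. The sense gene could be tested in 46 or 47 of the pairs, and in the remaining 9 or 10, such as FGD5-AS1 and DBH-AS1, it was too low, with FGD5 at a mean of 0.3333 reads. Antisense RNAs of these pairs were thus present with and without their sense gene.

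In edgeR no sense gene passed the adjusted threshold against siControl, with or without the block, where 0, 0 and 9 passed the nominal one without it (siNELFA, siYAP and the double knockdown). The nominal shares of all genes were 4.46%, 1.3% and 18.5% in the same order. With the block, 16 of 47 sense genes passed the nominal threshold in siNELFA, against 20.2% of all genes. In siYAP 6 of 46 did, against 9.11%. Whether these shares differ from those of all genes was not tested. At the adjusted threshold, DESeq2 called 3 sense genes in the double knockdown, SBF2, NNT and FLG, all lower, against 2.91% of all genes in that tool. It called 0 in siNELFA and siYAP, against 0.053% and 0.00313%. By sign alone, antisense and sense gene lay on the same side of zero in 23 of 47 pairs for siNELFA (48.9%), 31 of 46 for siYAP (67.4%) and 28 of 46 for siNELFA+siYAP (60.9%). With the block these counts were 21, 33 and 28. Across pairs, Pearson's r between both log2 fold changes was -0.139, 0.373 and 0.26 (Spearman's rho -0.0611, 0.356 and 0.206), a description over pairs that share libraries. Over the 4 head-to-head pairs, those of UBA6-AS1, RNASEH1-AS1, ST3GAL4-AS1 and ZMIZ1-AS1, the members and sense genes lay on opposite sides of zero for all 4 in siNELFA, 1 of 4 in siYAP (2 of 4 with the block) and 2 of 4 after the double knockdown.

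ST3GAL4-AS1, head to head with the sialyltransferase gene ST3GAL4, had 345, 178 and 136 normalised reads in siControl and 222, 180 and 114 in siNELFA, while ST3GAL4 had 874, 721 and 721 against 1322, 912 and 896. All siNELFA libraries of the sense gene lay above those of siControl, and the antisense libraries overlapped. With the block, the log2 fold change was -0.29 (edgeR adjusted p = 0.423) for the antisense and 0.42 ± 0.12 (edgeR adjusted p = 0.0605) for the sense gene. UBA6-AS1 and UBA6 stood at 0.11 and -0.21 in siNELFA and at 0.24 and -0.49 in siNELFA+siYAP, and RNASEH1-AS1 and RNASEH1 at -0.17 and 0.04 and at 0.00 and 0.15, none with a nominal p under 0.05 without the block, while with it UBA6 passed that threshold in siNELFA at -0.20 ± 0.09 (edgeR adjusted p = 0.244). In the double knockdown, the log2 ratio of UBA6-AS1 to UBA6 reads was -3.15 ± 0.15, against -3.85 ± 0.25 in siControl (SD, n = 3), without overlap, while that of ST3GAL4-AS1 to ST3GAL4 was -2.45 ± 0.04 against -1.92 ± 0.54, the opposite shift, also without overlap. For each, the exact permutation test, two-sided, gave p = 0.1, the smallest that 3 against 3 libraries allows. Of 47 ratios, 15 did not overlap siControl in the double knockdown, 9 in siNELFA and 3 in siYAP. No share over other gene pairs was computed, and the siNELFA+siYAP libraries spread less. These counts can therefore not be set against each other.

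In the double knockdown, 9 antisense and 9 sense genes of the 46 pairs passed the nominal threshold without the block, against 18.5% of all genes. No pair had both, and whether this differs from what that share would give was not tested. The 9 antisense genes lay on the side of their sense gene in 5 pairs and the 9 sense genes on the side of their antisense RNA in 7. TTN-AS1 was higher while TTN stood at -0.26 ± 0.56 (edgeR adjusted p = 0.837) with a mean of 32 reads. NOP14-AS1, which overlaps the end of the ribosome-biogenesis gene NOP14, had 110, 252 and 276 normalised reads in siControl and 426, 400 and 343 in siNELFA+siYAP, a log2 fold change of 0.85 (edgeR adjusted p = 0.219), while NOP14 stood at -0.15 ± 0.10. Their log2 ratio was -1.86 ± 0.14 against -2.98 ± 0.69 in siControl (SD, n = 3), without overlap and with an exact permutation p = 0.1. LOXL1-AS1 and LOXL1 were both below siControl, at -0.70 and -0.40, and the LOXL1 value did not pass (edgeR adjusted p = 0.487). AFAP1-AS1 stood at -1.19 and AFAP1 at -0.17 (edgeR adjusted p = 0.586).

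Among the sense genes past the nominal threshold in the double knockdown, SBF2 had 3307, 1880 and 1571 normalised reads in siControl and 1225, 1127 and 1154 in siNELFA+siYAP, a log2 fold change of -0.96 ± 0.27 (edgeR adjusted p = 0.142), while SBF2-AS1 stood at -0.30 (edgeR adjusted p = 0.545). NNT, a mitochondrial transhydrogenase, stood at -0.71 ± 0.18 (edgeR adjusted p = 0.118) and NNT-AS1 at -0.33 (edgeR adjusted p = 0.377). FLG, the gene of filaggrin, stood at -1.11 ± 0.37 (edgeR adjusted p = 0.19) and FLG-AS1 at -0.64 (edgeR adjusted p = 0.297). PSMA3, a proteasome subunit, stood at 0.40 ± 0.14 (edgeR adjusted p = 0.204), and PSMA3-AS1 at 0.05 (edgeR adjusted p = 0.856). The antisense to sense ratio overlapped siControl for SBF2 and FLG (exact permutation p = 0.3 and 0.9) and did not for NNT and PSMA3 (exact permutation p = 0.1 for both).

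PRR7-AS1 and PRR7 were the only pair in which both passed the nominal threshold in siNELFA with the block, and they lay on opposite sides. Of 47 pairs, 4 antisense and 16 sense genes passed it there. Whether 1 such pair differs from what these counts would give was not tested. PRR7-AS1 had 30.8, 165 and 123 normalised reads in siControl and 24.7, 82.9 and 98.8 in siNELFA. PRR7 had 4.87, 54.4 and 68.2 against 55.2, 103 and 70.7, so its difference was small in replicate 3 and in replicate 1 rested on a siControl value near the floor. Within each number, the antisense RNA was lower and the sense gene higher in siNELFA, by -0.58 (edgeR adjusted p = 0.2) and 0.96 ± 0.40 (edgeR adjusted p = 0.199). In siYAP with the block, the only such pair was ZMIZ1-AS1 and ZMIZ1, which lay on the same side at 0.49 (edgeR adjusted p = 0.535) and 0.29 ± 0.11 (edgeR adjusted p = 0.539). Between siNELFA and siYAP with the block, 12 of the 46 sense genes passed the adjusted threshold, against 15.8% of all genes, and 27 of 46 pairs lay on the same side. SLCO4A1-AS1 and SLCO4A1, an organic anion transporter, passed it together, both lower in siNELFA, at -0.68 ± 0.22 (edgeR adjusted p = 0.0314) and -1.14 ± 0.18 (edgeR adjusted p = 9.91e-05).

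Factors that degrade antisense and other short-lived nuclear RNAs were examined as a list of exosome subunits and cofactors. Of 19 tested, none passed the adjusted threshold in edgeR in any comparison with siControl. DESeq2 called 1, lower, in siNELFA+siYAP, against 2.91% of all genes in that tool. At the nominal threshold, 0 passed in siNELFA and siYAP, against 4.46% and 1.3% of all genes. In siNELFA+siYAP, where 18.5% of all genes passed, EXOSC9 and EXOSC10 were the ones of the list that did. EXOSC9, a core subunit, stood at -0.94 ± 0.25 (edgeR adjusted p = 0.124) and EXOSC10, a nuclear exonuclease of the complex, at -0.42 ± 0.14 (edgeR adjusted p = 0.184). The list's median was -0.08 there. With the block, EXOSC5 stood at 0.42 ± 0.18 and EXOSC10 at -0.24 ± 0.11 in siNELFA, both past the nominal threshold only, which 20.2% of all genes passed there. Their part in the members' values was not tested. The summed normalised reads of 3 blood-cell markers were 1333 to 1564 in siControl, 2186 to 2418 in siNELFA, 1934 to 2197 in siYAP, and those of siNELFA+siYAP 2744 to 2917. They came nearly all from CD68, since PTPRC had 0 to 4 reads and CD3E 0 in every library. The summed endothelial, fibroblast and myoepithelial markers overlapped between all groups and siControl. Those of 8 mesenchymal markers were 74575 to 87822 in siControl and 89763 to 91870 after the double knockdown, and those of 6 markers that are absent or low in the line 1265 to 1329 and 822 to 862, both without overlap. The part of these lists in the members' values was not tested.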

How the data were processed

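Total RNA depleted of ribosomal RNA was sequenced from 12 libraries, 3 per group. Per the study's methods, the authors aligned reads with STAR to GRCh38 with Ensembl annotation and deposited featureCounts read counts per gene; the strand and overlap settings and the tool versions are not given in the sources used here. The authors also deposited TPM values, used here for levels per length and for 1 alternative, and FPKM values, which were not used. Columns of sample values were all assigned to labelled samples. The members and lists were chosen with earlier results of these data known.

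Counts were tested with edgeR 4.0.16 (quasi-likelihood, TMM factors, R 4.3.3) on the 6 libraries of each comparison and on 12 for the interaction, after a filter on low counts (filterByExpr, minimum count 10, minimum total 15), with Benjamini-Hochberg adjustment over all genes tested and a threshold of 0.05. Standard errors are the log2 fold change divided by the square root of F. Normalised counts are TMM-scaled. DESeq2 1.42.0 and limma 3.58.1, on log2(TPM + 1), were alternatives, beside RLE factors, no filter, all 12 libraries in one fit, replicates 2 and 3 only, and each library left out. Shares of all genes for DESeq2 and for the fits without the filter are over every gene with at least 1 count in the libraries compared. Fits were tested on simulated data. Because same-numbered libraries of siControl, siNELFA and siYAP deviated together (r 0.642 to 0.886 over 12971 genes), and those of siNELFA+siYAP did not (r -0.0523 to 0.0256), fits without the block were given with a blocked fit beside them for comparisons among the first 3 groups. The study describes biological replicates, but the library names of siNELFA+siYAP all carry N1, so p-values measure the spread between these libraries, which may be technical in that group. Total counts per library were 9608145 to 18803104. Named genes were members past the adjusted threshold against siControl with or without the block, the 6 of lowest p in each direction among nominal calls per comparison, the 8 of highest mean count, the 2 on either side of the count threshold, -AS members whose sense gene passed the adjusted threshold, both targets and the sense genes of named members. PARP2, SNHG7, the calls between knockdowns and the remaining pairs were chosen after their values were seen. Figures were drawn with matplotlib 3.10.9.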

Additional observations from a re-analysis of the deposited data

How the results depend on the processing

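Of the values that answer a comparison, 213 stayed the same under the alternatives and 33 moved. In siNELFA, members at nominal p under 0.05 numbered 2 with DESeq2, 2 with all 12 libraries in one fit, 4 on the TPM scale, 13 with the replicate block and 14 with replicates 2 and 3 only, and 2 passed the adjusted threshold with the block. In siYAP they numbered 5 with all 12 libraries, 15 with the block and 8 with replicates 2 and 3 only. In siNELFA+siYAP they numbered 13 with all 12 libraries and 6 on the TPM scale, and members at the adjusted threshold numbered 5 with DESeq2, 1 without the filter and 20 with replicates 2 and 3 only (2.91%, 1.19% and 17.9% of all genes). Against siYAP, DESeq2 called 2 members of siNELFA+siYAP, and between siNELFA and siYAP the block gave 16. On the TPM scale the members' median log2 fold change was -0.18, 0.02 and 0.00 in siNELFA, siYAP and siNELFA+siYAP, where that of all genes was -0.15 in siNELFA and -0.10 in siNELFA+siYAP. The cause of these differences was not tested. Leaving out 1 library gave 0 to 5, 2 to 5 and 11 to 38 members at the nominal threshold in the same order, medians of -0.03 to 0.03, 0.04 to 0.10 and 0.08 to 0.14, and 22 to 27, 22 to 33 and 26 to 29 pairs on one side of zero. At the adjusted threshold it gave 0 to 25 members in siNELFA+siYAP, 0 to 15 between siNELFA+siYAP and siYAP, and 0 to 0 in each other comparison; the highest counts came without siControl replicate 1 and without siYAP replicate 1. NELFA ranged from -1.73 to -1.50 in siNELFA and -2.04 to -1.86 in siNELFA+siYAP, and YAP1 from -2.74 to -2.58 and -2.78 to -2.64. KCNQ1OT1 in siNELFA was -0.00 on the TPM scale and -0.01 to 0.62 when 1 library was left out. Of 338 alternative values of named members, 266 stayed the same, 49 lost and 21 gained the nominal call, and 2 changed direction, both of KCNQ1OT1. The spread of replicate 1 limits the single knockdowns: the biological coefficient of variation was 0.351 to 0.365 with 3 libraries and 0.125 to 0.155 with replicates 2 and 3, against 0.0615 in siNELFA+siYAP.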
